A study of Mus musculus with 16 samples.

Results

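The cytosolic ribosomal protein genes were taken as the autosomal protein-coding genes of the mm9 annotation named Rpl or Rps followed by digits and at most 1 letter (a, l or x), together with Rplp0, Rplp1 and Rplp2. This rule gave 75 genes of 21418 autosomal protein-coding genes: 45 of the large subunit, the Rplp genes included, and 30 of the small subunit. It left out pseudogenes, the Rps6k kinases and 4 X-linked genes that match the name (Rps4x, Rpl10, Rpl36a and Rpl39). The 75 genes lay on 18 of the 19 autosomes, 14 of them on chromosome 7.

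Chromatin immunoprecipitation and sequencing was performed on female (XX) and male (XY) mouse embryonic stem (ES) cells, pluripotent cells derived from the early embryo, to compare their histone marks. Each sex had 2 lines per mark, hybrids of C57BL/6 and CAST/EiJ at passage 7 to 10, with 1 IgG and 1 input library per sex, 16 libraries in all. All lines were grown on inactivated mouse embryonic fibroblasts in serum and LIF, and were depleted of these feeder cells, which came from embryos of both sexes, before harvest. For every mark the deposit holds an XX list and an XY list of regions called as enriched (6 lists). These give positions without heights or read counts, so the depth behind a region is unknown. How the 2 lines of a sex entered its list is not given in the sources used here, and with no replicate lists no test was made between XX and XY. A region present in few of the cells and a weak region present in all of them cannot be told apart in such lists.

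The ribosome is built from ribosomal RNA and the proteins of a large and a small subunit, and growing cells transcribe the genes of these proteins together and at a high rate. Their messages start with a C followed by a run of pyrimidines, the terminal oligopyrimidine (TOP) motif, through which the mTOR kinase controls their translation. Acetylation of histone H3 at lysine 27 (H3K27Ac) marks active promoters and enhancers. Monomethylation at lysine 4 (H3K4Me1) marks enhancers and the flanks of active promoters, whose starts usually carry the trimethylated form in its place. Trimethylation at lysine 27 (H3K27Me3) is set by the Polycomb complexes at silent genes.

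Start sequences are shown first, because the results turn on where the marks lie relative to the start. The RefSeq promoter table (GRCm38.p6) held 66 starts for 54 of the 75 genes, and each of the 66 was placed on mm9 by 1 exact match. Each line below runs from 40 bases before the annotated start to 20 bases from it, with the longest run of C and T that comes within 10 bases of the start in capitals. The first set holds the 5 large subunit and the 2 small subunit genes with the longest such run over the start itself, from Rpl7a with 21 bases to Rps18 with 11 bases.
Rpl7a: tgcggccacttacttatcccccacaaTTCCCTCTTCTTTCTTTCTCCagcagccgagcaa
Rpl27a: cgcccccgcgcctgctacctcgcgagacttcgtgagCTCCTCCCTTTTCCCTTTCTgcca
Rpl34: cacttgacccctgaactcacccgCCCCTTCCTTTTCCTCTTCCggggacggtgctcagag
Rpl35: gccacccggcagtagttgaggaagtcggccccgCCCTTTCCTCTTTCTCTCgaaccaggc
Rpl15: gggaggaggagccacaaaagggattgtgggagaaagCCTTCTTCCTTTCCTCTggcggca
Rps10: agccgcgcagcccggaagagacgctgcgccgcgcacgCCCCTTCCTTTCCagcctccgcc
Rps18: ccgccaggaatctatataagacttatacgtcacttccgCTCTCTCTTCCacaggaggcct
The windows are Rpl7a at chr2:26766287-26766346 (plus strand), Rpl27a at chr7:116662669-116662728 (plus strand), Rpl34 at chr3:130433236-130433295 (minus strand), Rpl35 at chr2:38860632-38860691 (minus strand), Rpl15 at chr14:19103481-19103540 (minus strand), Rps10 at chr17:27772170-27772229 (minus strand) and Rps18 at chr17:34092591-34092650 (minus strand). In all 7 the start lay inside an H3K27Ac region of both lists.

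The second set holds the 4 genes named as paralogs of another member or of an X-linked gene, shown for contrast. Rpl3l, Rpl10l, Rpl39l and Rps27l are copies of Rpl3, Rpl10, Rpl39 and Rps27, the first used mainly in striated muscle and the next 2 mainly in the testis in mouse.
Rpl3l: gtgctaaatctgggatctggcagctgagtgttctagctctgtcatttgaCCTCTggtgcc
Rpl10l: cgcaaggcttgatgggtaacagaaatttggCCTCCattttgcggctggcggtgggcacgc
Rpl39l: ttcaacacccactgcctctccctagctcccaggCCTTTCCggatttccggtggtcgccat
Rps27l: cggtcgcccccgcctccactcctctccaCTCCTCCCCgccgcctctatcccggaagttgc
The windows are Rpl3l at chr17:24864731-24864790 (plus strand), Rpl10l at chr12:67385369-67385428 (minus strand), Rpl39l at chr16:10170281-10170340 (plus strand) and Rps27l at chr9:66793853-66793912 (plus strand). In none of the 4 did the run of C and T cover the annotated start, and the start base was G in each. This was not particular to them. Of all 66 starts of the ribosomal protein genes, 29 (43.9%) began with C or T, and at the rest no run covered the start. For Rpl3l and Rps27l the more upstream of the 2 annotated starts is shown.

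Over the 66 starts, the first base was C at 20 (30.3%), against 13.9% of all 20085 autosomal protein-coding starts in the table. A run of at least 8 pyrimidines within 10 bases of the start was found at 28 (42.4%) of the ribosomal protein starts and at 14.1% of all starts, and a run of at least 12 at 12 (18.2%) and 3.89%. Searched on both strands over the 300 bases of the table, the letters CGGAAG, a core that ETS factors bind, occurred at 39 (59.1%) of the ribosomal protein starts and 21.5% of all starts. AAGATGG, a core of the YY1 site, occurred at 11 (16.7%) and 6.29%, TATAAA at 4 (6.06%) and 12.7%, and the NRF1 motif at 1 (1.52%) and 1.85%. The ETS letters end in the AAG with which the YY1 letters begin, and the pair shared it at 1 of the 66 starts. A match describes the letters alone. Genes without an entry included Rpl3, Rpl7, Rpl8, Rpl17, Rpl21, Rpl23a, Rpl29, Rpl30, Rpl32, Rpl36, Rplp1, Rps3a, Rps14, Rps20, Rps27a and Rps29. The median content of G and C was 58.7% at the ribosomal protein starts and 57.0% at all starts, and the median number of CG pairs was 22 and 14. The annotation named 27 of the 75 genes (36.0%) as hosts of small nucleolar RNAs, 53 RNAs in all, against 1.18% of all autosomal protein-coding genes. Rpl4 held 5 of them, and Rpl7a and Rpl13a held 4 each.

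The lists were checked against cell markers first. H3K27Ac lay at 8 of 8 ES cell markers, among them Pou5f1, Nanog and Sox2, in the XX and in the XY list. It lay at 1 of 8 fibroblast markers in XX and 3 of 8 in XY, and at none of 4 Y-linked genes in XX and 1 of 4 in XY. The XX list was the longer for each mark, with 28784 against 26100 regions of H3K27Ac, 18534 against 15138 of H3K27Me3 and 39404 against 34800 of H3K4Me1. Fibroblasts also use ribosomal protein genes, and the part of remaining feeder chromatin in the values below was not tested.

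H3K27Ac was nearly universal at the ribosomal protein genes. Counting a region over any base of the gene or within 2 kb of an annotated transcription start site (TSS), it lay at 74 of 75 genes in XX and 73 of 75 in XY, against 57.4% and 57.0% of all autosomal protein-coding genes. H3K4Me1 lay at 71 genes in XX and 70 in XY, against 67.3% and 66.0% of all genes. H3K27Me3 lay at 9 genes in XX and 8 in XY, against 38.1% and 33.5% of all genes. Of the 75 genes, 62 in XX and 63 in XY carried H3K27Ac and H3K4Me1 without H3K27Me3, against 32.4% and 35.0% of all genes. At 65 of the 75 genes (86.7%) the combination of marks was the same in both lists, against 77.5% of all genes. Leaving out the 4 paralogs, H3K27Ac lay at 71 of 71 genes in each list.

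The subunits had like counts. H3K27Ac lay at 44 of 45 large subunit genes in XX and 43 of 45 in XY, and at 30 of 30 small subunit genes in both. H3K27Me3 lay at 5 large subunit genes in XX and 4 in XY, and at 4 small subunit genes in each. The P stalk genes Rplp0, Rplp1 and Rplp2, whose products recruit the elongation factors, and Rps27a, which encodes ubiquitin fused to a ribosomal protein, carried H3K27Ac and H3K4Me1 without H3K27Me3 in both lists. Of 10 ribosomal protein genes outside the name rule, among them Rpsa and the 4 X-linked genes, 10 had H3K27Ac in both lists and none had H3K27Me3. H3K4Me1 lay at 8 of them in XX and 5 in XY, against 67.3% and 66.0% of all autosomal protein-coding genes. The number of X chromosomes differs between the XX and XY lines, and the X-linked genes were not counted apart.

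Over the 5′ end of the gene model itself the 3 marks differed. H3K27Ac covered it at 72 of 75 genes in each list, against 46.4% of all genes in XX and 47.0% in XY. H3K27Me3 covered it at 1 gene in each list, Rpl13a, against 23.9% of all genes in XX and 20.1% in XY. H3K4Me1 covered it at 27 genes in XX and 35 in XY, against 46.2% and 43.2% of all genes.

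The H3K27Ac regions over these 5′ ends were wide and mostly held the whole gene. Their median width was 10.1 kb in XX and 10.3 kb in XY (n = 72 genes each), with the middle 50% of genes between 7.55 and 13.2 kb in XX and between 7.8 and 13.8 kb in XY. Over all genes with H3K27Ac at the 5′ end the median width was 4.0 kb in XX and 4.2 kb in XY. The median region at a ribosomal protein gene began 2.73 kb upstream of the 5′ end in XX and 2.61 kb in XY, and ended 3.08 kb past the 3′ end in XX and 2.96 kb in XY. The whole gene lay inside 1 region at 66 of 75 genes in XX and 67 in XY, against 4.87% and 5.03% of all genes. The ribosomal protein genes are short, with a median length of 3.37 kb against 15.5 kb, so the comparison was repeated on genes up to 6 kb with H3K27Ac over the 5′ end, a limit chosen after the widths were seen. The whole gene then lay inside at 63 of 66 ribosomal protein genes in XX and 63 of 65 in XY, against 48.5% and 51.5% of all such genes, and the median width was 10.0 kb in XX and 10.2 kb in XY, against 5.2 and 5.6 kb. The mitochondrial ribosomal protein genes, which build the separate ribosome of the mitochondrion, had median widths of 3.4 kb in XX and 3.8 kb in XY, with 74 of 76 and 75 of 76 5′ ends covered.

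**Figure D1:**
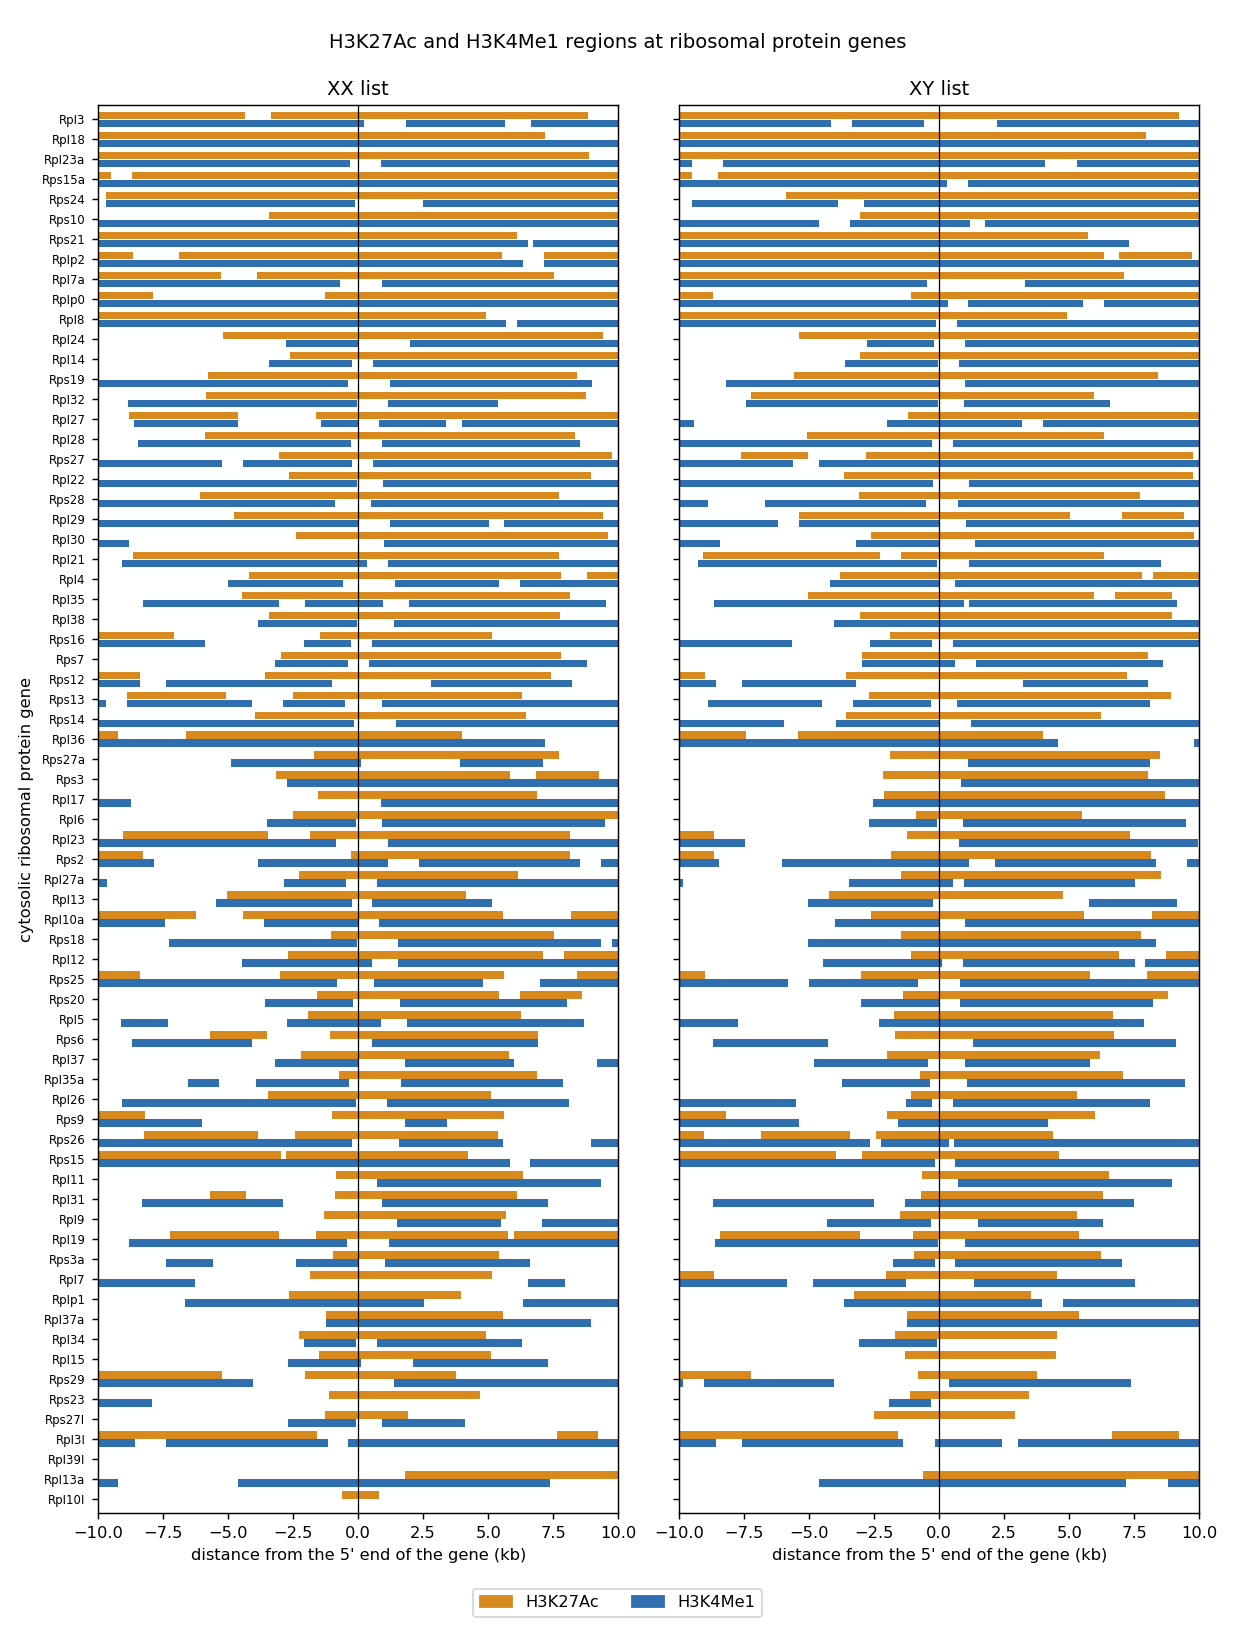
Regions of H3K27Ac (orange) and H3K4Me1 (blue) within 10 kb of the 5′ end of 70 of the 75 genes, 1 row per gene, with the XX list on the left and the XY list on the right. Rows run from the widest H3K27Ac region (mean of both lists) at the top to genes without such a region over the 5′ end in both lists at the bottom. The orange bars cross the 5′ end (black line) at 67 of these genes in each list, and the blue bars cross it at 25 in XX and 32 in XY.

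Most of the widest regions were shared with neighbouring genes. Rpl18 had 22.6 kb in XX and 25.0 kb in XY, over the starts of Sphk2, Dbp, Car11 and Fam83e as well. Rpl23a had 21.4 kb in XX and 23.6 kb in XY, with the starts of Nek8, Proca1, Rab34 and Tlcd1. Rps15a had 22.2 kb in XX and 22.6 kb in XY, with no start of another protein-coding gene inside. A start of another protein-coding gene lay in the region of 35 of 72 genes in XX and 37 of 72 in XY. A protein-coding start on the other strand lay within 1 kb upstream at 10 of the 75 genes. These ran from Ndufa7 at 29 bp from Rps28 to Lrsam1 at 308 bp from Rpl12. Neither count was set beside all genes, so neither is given as particular to the ribosomal protein genes.

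The narrowest regions were at Rps27l, with 3.2 kb in XX and 5.4 kb in XY, among the genes with a region over the 5′ end in both lists. Rps23, whose product lies at the decoding centre, and Rps29 had 5.8 kb in XX and 4.6 kb in XY each. Rpl15 had 6.6 kb in XX and 5.8 kb in XY. Rpl34, Rpl37a and Rplp1 followed, with a mean of 6.7 kb over the 2 lists each. All of these but the XX region of Rps27l were wider than the median of all genes, 4.0 kb in XX and 4.2 kb in XY.

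Width differed little between the lists at most of these genes. Of 71 genes with a region over the 5′ end in both, 30 (42.3%) were wider in XX, 39 were wider in XY and 2 were equal, while 43.7% of all genes with both widths were wider in XX. The median difference, XX minus XY, was -200 bp, the step of the grid on which the regions were called, against 0 bp over all genes. The widths lay within 1 kb of each other at 36 genes and within 2 kb at 51, and over 5 kb apart at 6.

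The 6 genes with widths over 5 kb apart were wider in XY at 4 and in XX at 2. Rpl3, which reaches towards the peptidyl transferase centre, had 12.2 kb in XX and 44.4 kb in XY, where the region ran on to the start of Syngr1. Rplp2, of the P stalk, had 12.4 kb in XX and 24.6 kb in XY, where it took in the starts of Cend1 and Slc25a22. Rps16 had 6.6 kb in XX and 15.8 kb in XY, where it reached Plekhg2, and Rpl7a had 11.4 kb in XX and 20.0 kb in XY, where it reached Surf6. In each of these 4 the XY region held a start of a further gene that the XX region did not. At 3 of them the XX list held a further H3K27Ac region upstream, across a gap that the XY region covered. That region ended at -4.365 kb from the 5′ end at Rpl3, -5.285 kb at Rpl7a and -8.67 kb at Rplp2. There the difference in width came at least in part from a split of the stretch. Rpl21 had 16.4 kb in XX and 7.8 kb in XY, and Rpl6 had 12.6 kb in XX and 6.4 kb in XY, with no other protein-coding start inside in either list. At Rpl21 the XY list held a further H3K27Ac region from -9.065 to -2.267 kb, so its stretch was likewise split.

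**Figure D2:**
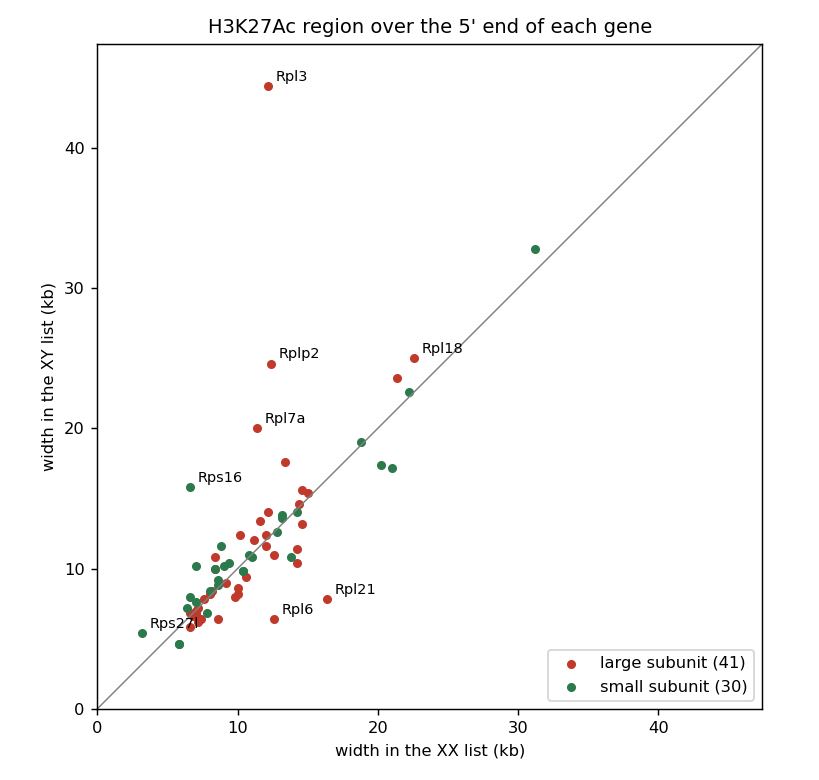
Width in kb of the H3K27Ac region over the 5′ end of each of 71 genes, XX list on the horizontal axis and XY list on the vertical axis, large subunit in red and small subunit in green. The grey line marks equal widths. Most points lie near it, 36 within 1 kb, and the 6 genes over 5 kb apart are named along with Rpl18 and Rps27l.

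H3K4Me1 showed a gap over the start of the ribosomal protein genes and covered both sides of it. Of the 72 genes with H3K27Ac over the 5′ end, H3K4Me1 covered it as well at 25 (34.7%) in XX and 34 (47.2%) in XY, against 66.2% and 61.7% of all such genes. Among genes up to 6 kb it did so at 21 of 66 ribosomal protein genes in XX and 30 of 65 in XY, against 75.1% and 72.9% of all such genes. RefSeq starts were also counted, in place of the 5′ end of the gene model. H3K4Me1 covered 16 of 63 such starts with H3K27Ac in XX (25.4%) and 22 of 62 in XY (35.5%). These are shares of starts and not of genes, and no share over the RefSeq starts of all genes was computed. Counting every annotated TSS of a gene, many of which lie inside the gene, H3K4Me1 covered at least 1 at 43 of 73 genes in XX (58.9%) and 47 of 72 in XY (65.3%), against 76.3% and 73.1% of all genes with H3K27Ac over a TSS. At the mitochondrial ribosomal protein genes the shares were 60.8% in XX and 61.3% in XY.

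The gap was narrow. Among the 47 genes in XX and 38 in XY with H3K27Ac and no H3K4Me1 over the 5′ end, H3K4Me1 lay within 5 kb on both sides at 39 (83.0%) in XX and 29 (76.3%) in XY, against 46.4% and 46.6% of all such genes. Where H3K4Me1 lay within 10 kb on both sides, at 43 genes in XX and 31 in XY, the median distance between the flanking regions was 1.6 kb in XX and 1.4 kb in XY, against 1.2 kb in each over 1742 and 2000 genes of the whole set. The lowest was 0.802 kb in both lists, at Rpl14 among others, and the highest was 12.8 kb in XX, at Rpl7, and 8.2 kb in XY, at Rpl23. In steps of 200 bp, coverage by H3K4Me1 was lowest 400 bp downstream of the 5′ end, at 25.3% of the genes in XX and 36.0% in XY. It reached 81.3% in each list 1000 bp upstream, and 92.0% in XX and 86.7% in XY 3000 bp downstream. Over all genes with H3K27Ac at the 5′ end, the coverage 400 bp downstream was 69.0% in XX and 65.4% in XY.

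**Figure D3:**
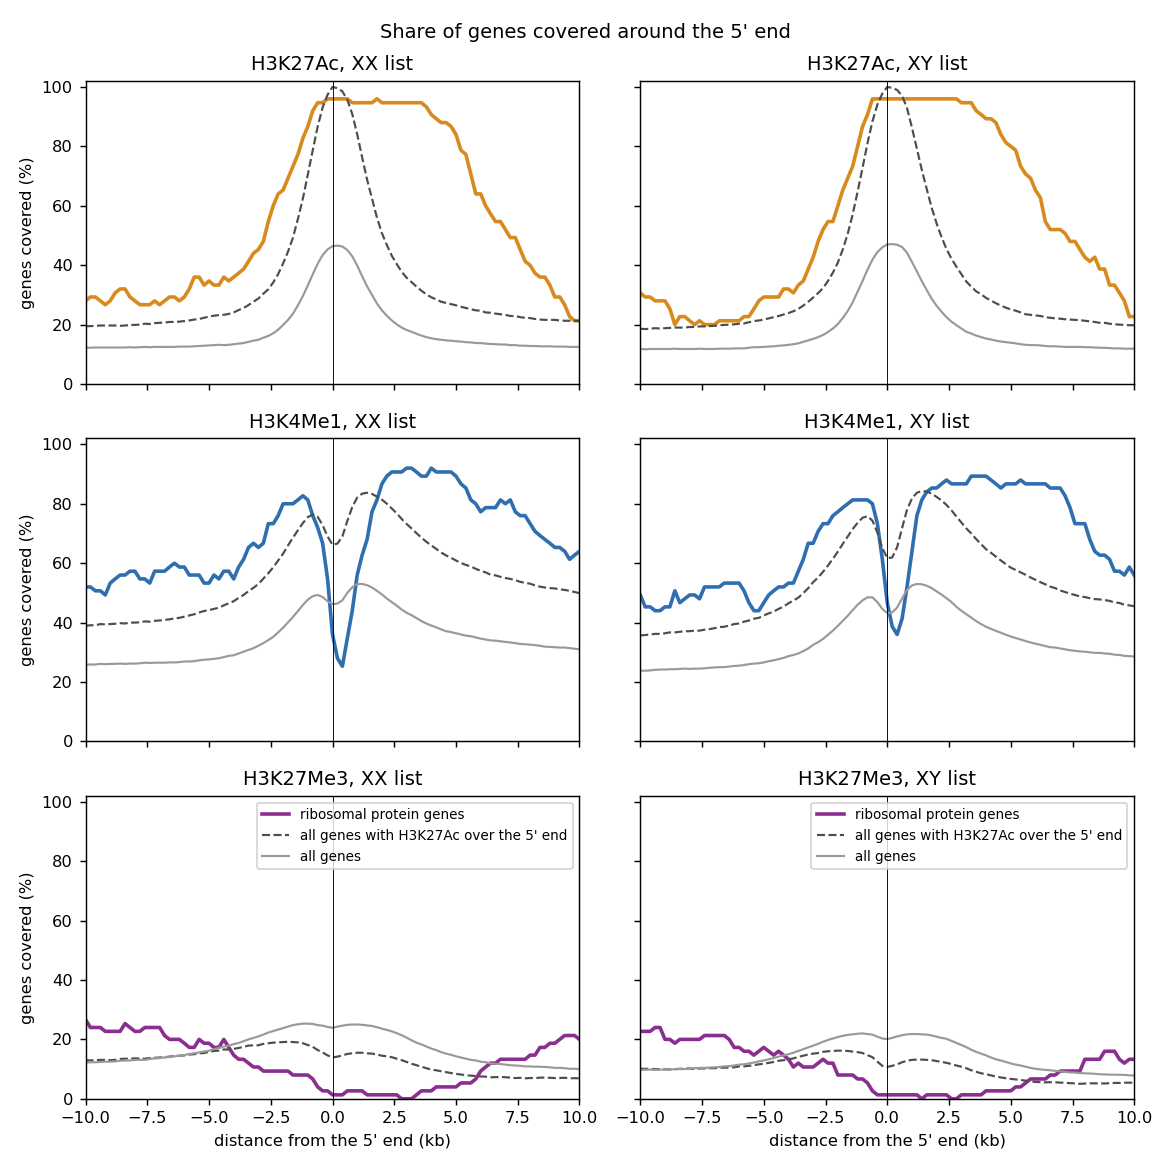
Percent of genes covered by each mark in steps of 200 bp from 10 kb upstream to 10 kb downstream of the 5′ end, XX lists on the left and XY lists on the right. Coloured lines are the 75 ribosomal protein genes, dashed lines all genes with H3K27Ac over the 5′ end and grey lines all autosomal protein-coding genes. H3K27Ac covers at least 94.7% of the ribosomal protein genes from the 5′ end to 3000 bp downstream, H3K4Me1 dips to 25.3% (XX) and 36.0% (XY), and H3K27Me3 is at 1.33% over the 5′ end.

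Which genes had H3K4Me1 over the 5′ end depended on the list. It covered the 5′ end in both lists at 18 genes, among them the 3 P stalk genes, Rpl5, Rpl18 and Rps2, and in neither list at 31, among them Rpl7a, Rpl34, Rpl11, Rps6 and Rps12. The RefSeq start of Rps2 lay 1947 bp downstream of that end, outside H3K4Me1 in both lists. H3K4Me1 covered the 5′ end in XX alone at 9 of the 75 genes, against 10.2% of all genes, and in XY alone at 17 of 75, against 7.26%. At 7 of these 9 and 16 of these 17 the other list had H3K4Me1 within 1 kb of the 5′ end, with a median distance of 0.189 kb for the XX genes and 0.315 kb for the XY genes. Rpl15 was the farthest, with 12.3 kb from the 5′ end to the nearest XY region. At most of these genes the lists therefore differed in where the edge of a region lay, on a grid of 200 bp.

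By the wider rule, which takes in the gene and 2 kb around each TSS, few genes carried a mark in 1 list alone. The shares over all genes were low as well, so this is not given as particular to the ribosomal protein genes. H3K27Ac was in XX alone at 1 gene, Rpl10l, against 3.05% of all genes, and in XY alone at none, against 2.69%. H3K4Me1 was in XX alone at Rps12, Rpl15 and Rps27l (4.0%), near the 4.44% of all genes. In XY alone it was at Rpl7 and Rps23 (2.67%), near the 3.13% of all genes. At Rps12 the XY list held H3K4Me1 from -7.584 to -3.186 kb, which overlapped the XX region from -7.384 to -0.986 kb. There the lists differed in where an edge lay relative to the 2 kb of the rule. H3K27Me3 was in XX alone at 3 genes (4.0%), among them Rps10 and Rpl38, against 8.11%. In XY alone it was at Rps19 and Rps27l (2.67%), against 3.51%. Rps27l thus had H3K4Me1 in XX without H3K27Me3, and H3K27Me3 in XY without H3K4Me1, with H3K27Ac in both.

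A region counted as present in 1 list only where it overlapped no region of that mark in the other list. H3K27Ac had 2 such regions in XX, a 1.4 kb region over Rpl10l and a 3.2 kb region 19.7 kb inside the long gene model of Rpl11. This was 2.67% of the ribosomal protein genes, and none had such a region in XY, against 11.5% of all genes in XX and 7.53% in XY. H3K4Me1 had 7 in XX, at Rpl34, Rpl13, Rps27a, Rpl15 (2 regions) and Rps27l (2 regions), against 20.0% of all genes, and 4 in XY, at Rpl7, Rpl9, Rps23 and Rpl30, against 11.2%. H3K27Me3 had 2 in XX, 1 of them at Rps10, against 13.8% of all genes, and 1 in XY, at Rps19, against 6.91%. The nearest region of the other list was 0.601 kb away for Rpl13 and 0.801 kb for Rpl34, and 31.8 and 35.4 kb for the 2 regions at Rps27l.

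H3K27Me3 covered the 5′ end of the gene model at Rpl13a alone, and at the other genes its regions lay upstream or downstream of that end. It lay upstream at Rpl26, whose region ended 0.086 kb from the 5′ end in XX and 0.686 kb in XY, and at Rps18, 0.855 kb away in XX and 0.655 kb in XY. Rpl11, whose product binds the p53 regulator Mdm2, had a region 0.458 kb upstream in XX and 1.26 kb upstream in XY. A second, of 18.2 kb in XX and 18.4 kb in XY, began 12.9 and 11.9 kb downstream, in a gene model of 25.2 kb. In each list this second region held 1 annotated TSS of Rpl11.

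The low counts of H3K27Me3 held near the start and not farther out. At 10000 bp upstream of the 5′ end, H3K27Me3 covered 26.7% of the ribosomal protein genes in XX and 22.7% in XY, against 12.2% and 9.69% of all genes. At 10000 bp downstream it covered 20.0% in XX and 13.3% in XY, against 10.0% and 7.83% of all genes.

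At other genes the rule of 2 kb counted H3K27Me3 in 1 list alone. In XX regions lay 0.639 kb upstream of Rpl38, which in mouse is needed for translation of Hox messages, and 1.63 kb upstream of Rps10. In XY regions lay 0.591 kb upstream of Rps19, mutated in Diamond-Blackfan anaemia in human, and 0.894 kb upstream of Rps27l. At Rpl38, Rps10, Rps19 and Rps27l the other list also held H3K27Me3 within 10 kb upstream, outside the 2 kb of the rule. At Rpl38 the XX and XY regions overlapped over most of their length, so there the lists differed in where an edge lay. At Rps27l they overlapped only at their ends, with the XX region ending at -5.094 kb and the XY region beginning at -5.292 kb. Most of that XY region therefore had no H3K27Me3 in XX. Each of these 4 genes kept an H3K27Ac region over its 5′ end in both lists.

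Rpl13a was the exception. A region of 4.0 kb covered its 5′ end and the start of Flt3l in both lists, at the same positions, chr7:52390401-52394399. It held 2 of the 11 annotated TSSs of Rpl13a, while H3K27Ac held 9 of them in XX and 11 in XY. The XX H3K27Ac region began 1.79 kb downstream of the 5′ end of the gene model, and the XY region ran over it. The RefSeq start of Rpl13a lay 7672 bp downstream of that 5′ end. It was outside the H3K27Me3 region and inside H3K27Ac in both lists.

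**Figure D4:**
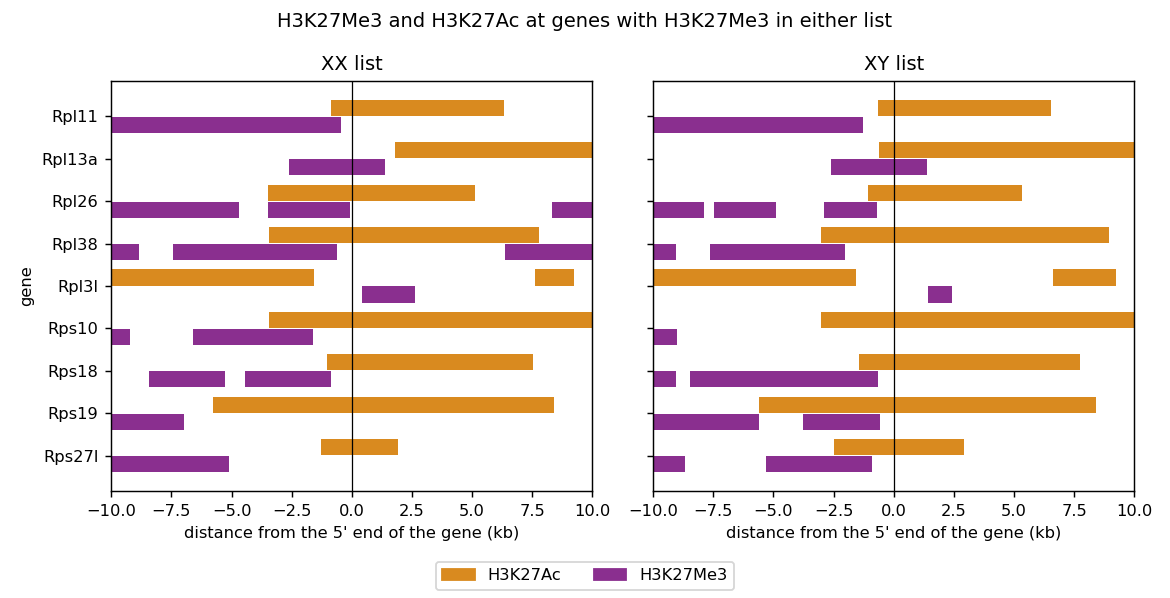
Regions of H3K27Me3 (purple) and H3K27Ac (orange) within 10 kb of the 5′ end of 9 of the 11 genes with H3K27Me3 in either list by the rule of 2 kb, XX list on the left and XY list on the right. The purple bars lie beside the 5′ end (black line) at 8 of these genes and cross it at Rpl13a in both lists.

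The 4 paralogs stood apart from the other members. Rpl39l, at chr16:10170319-10175004, was bare of H3K27Ac, H3K4Me1 and H3K27Me3 in XX and in XY. Rpl10l, at chr12:67384368-67385388, had 1.4 kb of H3K27Ac in XX alone, 367 kb from the nearest XY region, and no H3K4Me1 or H3K27Me3. Rpl3l, at chr17:24864774-24873094, had H3K4Me1 over its 5′ end in both lists, 14.6 kb in XX and 2.6 kb in XY, and H3K27Me3 inside the gene, 2.2 kb in XX and 0.999 kb in XY. Its 5′ end had no H3K27Ac. The H3K27Ac that brought it into the count lay 1.57 kb upstream, in the region of its neighbour Rps2, and at its 3′ part, in a region over the start of Sepx1. Rps27l had H3K27Ac over its 5′ end in both lists and was the only 1 of the 4 to do so.

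The companion gene lists had like counts of H3K27Ac. It lay at 75 of 76 mitochondrial ribosomal protein genes in XX and 76 of 76 in XY, and in both lists at 20 of 20 translation factors and other genes with TOP messages, such as Eef1a1 and Pabpc1, and at 24 of 24 genes of ribosome assembly and RNA polymerase I, such as Ncl and Fbl. H3K27Me3 lay at 13 mitochondrial ribosomal protein genes in XX and 9 in XY, at 3 and 1 of the TOP genes and at 4 and 2 of the assembly genes. Among genes with H3K27Ac over the 5′ end, H3K4Me1 covered it as well at 7 of 19 TOP genes in XX (36.8%) and 8 of 19 in XY (42.1%), and at 12 of 24 assembly genes in XX and 13 of 24 in XY, beside the 66.2% and 61.7% of all such genes given above.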

How the data were processed

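The authors aligned single-end reads of 50 bases to the mouse genome mm9 with Bowtie2 and measured the enrichment of reads with Bedtools, and their processing notes also name deepTools. They deposited 6 region files, 1 per sex and mark. Each holds chromosome, start and end alone, with no other score, so the deposited values are positions on a grid of 200 bp. For the region caller, its threshold, its control and the pooling of lines, nothing was given in the sources used here. Gene models were those of GENCODE M1 on NCBIM37, the same build as mm9.

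A gene carried a mark where a region overlapped its body, or the 2 kb around any annotated TSS, by at least 1 bp. The 5′ end was that of the gene record. Counts over the 75 genes were set beside those over the 21418 autosomal protein-coding genes, with no test, since each sex and mark has 1 list. Named genes were every member without H3K27Ac or H3K4Me1 in a list, with H3K27Me3, or with a mark or region in 1 list only, the paralogs, the 5 widest and 5 narrowest H3K27Ac regions and the 5 largest differences in width. Genes shown for other reasons, the sequences included, were chosen after their values were seen. A few genes are counted in the totals and are not reported by name here. The members and lists were chosen with earlier results of these data known. Promoter sequences came from RefSeq (GRCm38.p6) and were placed on mm9 by exact match. Scripts ran in Python 3.11.15, overlap counts were checked with bedtools 2.31.1, and the overlap code was tested on simulated data. The alternatives tried were the distance, the overlap, the width of regions, lists of equal length and the members included.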

Additional observations from a re-analysis of the deposited data

How the results depend on the processing

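No paired analysis was possible because each sex and mark has 1 list and no result comes from a test. Of 142 values recomputed under an alternative, 113 stayed within 1.5 times the reported one, among them all H3K27Ac counts and widths other than the few genes or regions of 1 list. Reaching 5 kb from a TSS gave H3K27Me3 at 24 genes in XX (32.0%) and 23 in XY (30.7%), against 41.7% and 36.6% of all genes, with 8 in XX alone and 7 in XY alone, and H3K4Me1 in XY alone at 1. Asking for the 5′ end itself gave H3K27Me3 at 1 gene in each list and in 1 list alone at 0, H3K4Me1 at 27 in XX and 35 in XY with 9 in XX alone and 17 in XY alone, and H3K27Ac in XY alone at 1. The widest 50% of each list gave H3K27Me3 at 5 genes in XX and 2 in XY, with 1 in XY alone, and H3K27Ac in XX alone at 0 and in XY alone at 1. Without the 4 paralogs, H3K27Ac was in XX alone at 0 genes and H3K27Me3 in XY alone at 1. Asking for a reciprocal overlap of 50% raised the regions of 1 list to 5 in XX and 3 in XY for H3K27Ac, 4 in XX and 4 in XY for H3K27Me3, and 35 in XX and 30 in XY for H3K4Me1. Lists of equal length gave 11 H3K4Me1 regions of XY alone. An alternative added after the data were seen, any annotated TSS in place of the 5′ end, gave H3K4Me1 at 58.9% of the XX genes with H3K27Ac there, where 34.7% was reported. The causes were not tested, beyond what each setting does by its construction. The lists hold no heights, depths or replicates, so neither the strength of a mark nor the spread between lines could be given, and whether a region absent from a list fell just short of its threshold is unknown.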
